A study of Mus musculus with 18 samples.

Results

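Azoxymethane (AOM) was compared with saline in non-tumour intestine of mice on the control diet. AOM is a carcinogen that alkylates DNA and induces intestinal tumours in rodents. By their titles, 3 of the 18 arrays of the series held RNA of mice given the control diet and AOM, sampled away from tumours, and 3 held RNA of mice given the control diet and saline. All 6 samples came from male C57BL/6 mice, and the labels of the groups differ in the injection alone. Other arrays held both treatments with St. John's wort (SJW) in the diet, or tumours. Each array set 1 sample, in red (Cy5), against a commercial pool of RNA from Swiss Webster mice, in green (Cy3), so that a log2 ratio of 0 is the level of the pool and a difference of 1 between groups is a doubling. The pool names no intestine among its organs, which include liver, spleen, brain and whole embryo. Neither ages, dose, time after injection nor a dye swap is given in the labels. The series calls the arrays biological replicates without naming the animals behind them. The p-values therefore measure a spread between arrays within groups, estimated over all 18 arrays and not over these 6 alone. RNA came from pieces of tissue, in which fewer cells of a type and less RNA per cell cannot be told apart.

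The intestinal lining is renewed from stem cells at the base of its crypts. Wnt signals hold these cells in division, and BMP signals from the surrounding tissue oppose them as cells move up and mature. Paneth cells, which sit beside the stem cells in the small intestine and are rare or absent in the healthy mouse colon, release antimicrobial peptides. AOM is activated by cytochrome P450 enzymes, and its DNA adducts are handled by alkylation repair and by the p53 response.

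Signal on the arrays was modest. The median red intensity was 155.5, 375 and 218 on the saline arrays and 137.5, 257 and 198 on the AOM arrays, and 66.6% to 83.7% of spots were well above background. The median green intensity was 218, 507 and 533 after saline and 263.5, 593 and 243 after AOM, so the reference was matched in brightness on slides 1 and 2 and not on slide 3. Replicate n of each group lay on slide n. Saline replicate 2 stood apart: its ratios correlated with those of the other 5 arrays at 0.865 to 0.907, against 0.918 to 0.954 among those 5.

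Marker genes did not clearly bear out the labelled small intestine. Against the pool, the epithelial gene Vil1 stood at 3.77 to 4.21 on the 6 arrays, and the hindgut patterning gene Hoxb13 at 1.1 to 3.16. Car1 and Slc26a3, abundant in colon epithelium, stood at 7.01 to 8.21 and at 5.56 to 7.65. The lactase gene Lct, which marks small intestine, was at -0.24 to 0.91, and the median level of 11 ileum markers was -1.40 to 0.03. That of 24 absorptive enterocyte genes, Lct's list, was 0.46 to 1.18, and that of 20 colon markers was 2.74 to 3.58. These levels are ratios to the pool, so they also depend on its organs, liver among them. Hepatocyte markers, checked because the extraction protocol names liver, had median levels of -1.33 to -0.37. The tissue is therefore called intestine here.

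Of 26067 genes measured, 152 passed the test on the control diet (0.583%; limma, adjusted p under 0.05), 119 higher after AOM (0.457%) and 33 lower (0.127%). Of the 152, 128 had a gene symbol. In all 152 the 3 AOM arrays lay apart from the 3 saline arrays, which by itself fixes the same direction on each of the 3 slides. Over all genes the groups lay apart, higher after AOM, in 9.45% and, lower, in 8.34%, and 48.9% of changes were above 0. Counts within gene lists are to be read beside these shares. Of the 152, 52 had another kept probe, and 5 of these had one of opposite sign. The called genes changed by a median of 1.04 (higher) and -0.78 (lower), and at least a doubling was seen in 65 higher and 9 lower genes. Which genes passed depended on single arrays. The count was 11 without saline replicate 1, 26 without saline replicate 2, 45 without AOM replicate 1 and 28 without AOM replicate 2. With the 6 arrays alone in the fit, 7 genes passed, and all 7 were higher. Whichever of the 6 arrays was left out, 10 genes stayed called: Defa23, Wfdc18, Sprr1a, Igfbp5, Lama5, E2f2, Phlda1, Anxa5, Slc37a2 and a transcript listed only as NM_010031.

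**Figure D1:**
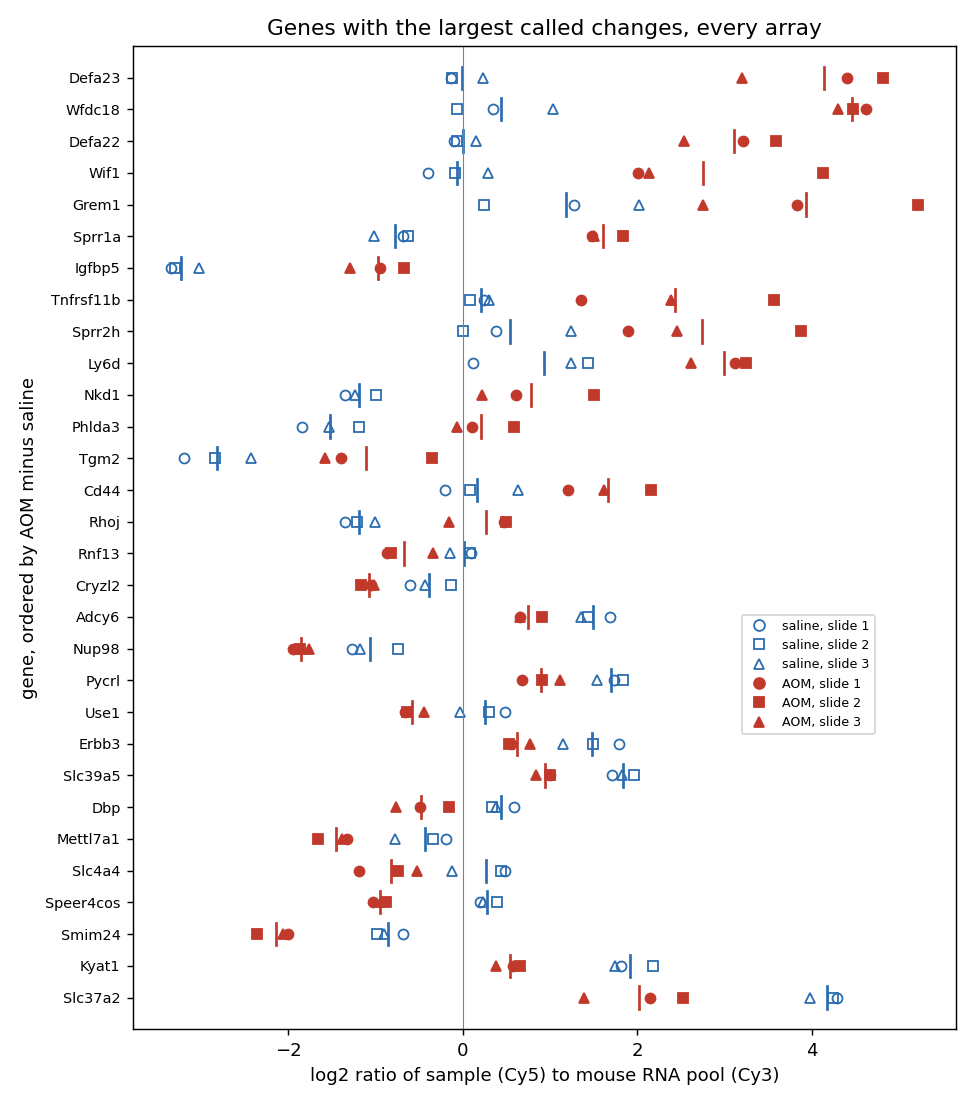
Log2 ratio of sample to RNA pool (x axis) on each of the 3 saline (open) and 3 AOM (filled) arrays for the 15 largest called changes up and the 15 down (y axis). Vertical bars mark group means and symbols the slides; saline and AOM arrays do not overlap in any of these genes.

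Alpha-defensins, the antimicrobial peptides of Paneth cells, included the largest called change of a gene with a symbol. Of 5 measured Defa genes 2 passed, and the 5 ranged from -0.245 to 4.14. Defa23 read -0.13, -0.12 and 0.23 on saline arrays 1 to 3 and 4.41, 4.81 and 3.20 on AOM arrays 1 to 3. It rose by 4.14 ± 0.57 (SE, n = 3 a group; 17.7-fold; adjusted p = 0.00592). Its probe was well above background on 2 of the 3 saline arrays, with red intensities of 94.0, 128.0 and 135.5 there and of 1373.5, 4378.0 and 1313.0 after AOM, so the size of the fold rests on values near background. Defa22, well above background on all 6 arrays, read -0.09, -0.06 and 0.16 after saline and 3.22, 3.59 and 2.54 after AOM, and rose by 3.11 ± 0.48 (8.64-fold; adjusted p = 0.0104). Of the AOM arrays, that of slide 3 was the lowest for both genes. Transcripts listed only as NM_010031 and NM_007852 rose by 4.77 ± 0.59 and 4.65 ± 0.65, each well above background on 1 of 3 saline arrays; they are named here after their values were seen.

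The Paneth cell list as a whole was less uniform. Of its 11 measured members 9 were above 0, with a median of 0.83. The groups lay apart and higher in 6, against 9.45% of all genes, and 2 passed. Defa20 (1.39 ± 0.46) and the matrix protease Mmp7, which activates mouse alpha-defensins (1.87 ± 0.54; adjusted p = 0.113, and 0.0369 with slide as a block), did not pass. Mmp7 read 0.30, -0.06 and 1.41 after saline and 1.90, 2.45 and 2.92 after AOM. The lysozyme gene Lyz1 was at 0.61 ± 0.39, and Itln1 and Ang4 were at -0.06 ± 0.91 and -0.94 ± 0.92 with overlapping arrays. The list's median was 0.91 on slide 1, 2.40 on slide 2 and 0.43 on slide 3. Defensin genes are closely alike in sequence, and probe sequences were not used here, so each value may include related transcripts.

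The stretch upstream of the annotated start is shown for the 3 of 5 measured Defa genes that matched a promoter window (not Defa3 or Defa39), because they share a motif. Paneth cell defensins are known targets of Wnt signalling, whose DNA-binding factors (TCF/LEF) recognise ATCAAAG. Capitals mark each ATCAAAG, searched on both strands of the 250 bases before the start (RefSeq, build GRCm38.p6, plus strand of chromosome 8).
Defa23, chr8:21054790-21055039: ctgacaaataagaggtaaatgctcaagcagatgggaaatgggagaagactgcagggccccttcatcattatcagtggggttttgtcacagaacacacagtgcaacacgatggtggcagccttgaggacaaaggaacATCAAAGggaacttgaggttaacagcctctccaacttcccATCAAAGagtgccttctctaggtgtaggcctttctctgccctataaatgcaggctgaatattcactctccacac
Defa22, chr8:21162027-21162276: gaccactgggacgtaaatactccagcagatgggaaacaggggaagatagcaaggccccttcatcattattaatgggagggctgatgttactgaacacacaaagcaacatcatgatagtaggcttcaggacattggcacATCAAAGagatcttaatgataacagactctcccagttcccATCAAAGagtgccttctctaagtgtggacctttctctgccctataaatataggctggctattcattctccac
Defa20, chr8:21509008-21509257: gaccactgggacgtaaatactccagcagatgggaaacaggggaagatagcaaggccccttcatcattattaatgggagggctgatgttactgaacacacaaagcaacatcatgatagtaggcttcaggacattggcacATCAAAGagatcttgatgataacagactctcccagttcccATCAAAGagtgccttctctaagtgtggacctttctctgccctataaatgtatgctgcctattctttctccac
All 3 hold the motif 2 times, at bases -114 and -74 in Defa23 and at -112 and -72 in the others. Of 32851 promoter windows of this length 3.21% held it at least 1 time and 0.0822% at least 2 times. The windows of Defa22 and Defa20 have the same base at 245 of 250 positions, so these are not independent counts, and a match is not evidence of binding.

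Among other secreted products, Wfdc18 (a whey acidic protein family member) read 0.35, -0.06 and 1.04 after saline and 4.62, 4.48 and 4.30 after AOM. It rose by 4.03 ± 0.55 (16.3-fold; adjusted p = 0.00592) and passed in all 22 other settings tried. It was 1 called gene of 11 measured in its family, whose median change was 0.00. The decoy receptor gene Tnfrsf11b (osteoprotegerin), read at 0.08 to 0.30 after saline and at 1.35, 3.56 and 2.38 after AOM, rose by 2.22 ± 0.46 (adjusted p = 0.0391).

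Among genes of Wnt and BMP signalling, the antagonist genes Wif1 and Grem1, the feedback inhibitor gene Nkd1 and the Wnt target Cd44 rose. Wif1, which binds Wnt ligands outside the cell, read -0.40, -0.08 and 0.29 after saline and 2.01, 4.12 and 2.14 after AOM (2.82 ± 0.58; adjusted p = 0.0384, and 0.0554 with slide as a block). Its probe was well above background on 2 of the 3 saline arrays, with red intensities of 84.5, 147.0 and 115.0 over local backgrounds of 69.0, 68.0 and 59.0, so the size of this change too rests on values near background. Grem1, a stromal antagonist of BMP ligands, read 1.27, 0.24 and 2.02 after saline and 3.84, 5.22 and 2.75 after AOM, a rise of 2.76 ± 0.54 (adjusted p = 0.0336). In both genes AOM replicate 2 was the highest array. Of 18 secreted Wnt ligands and antagonists measured, Wif1 passed. Wnt11 (-0.31 ± 0.14) did not, nor did Dkk2 (adjusted p = 0.222). Dkk2 was not well above background on any saline array, and was so on 2 AOM arrays. In normalized red intensity, not the ratio, its mean was 2.37-fold higher after AOM with saline values raised to the detection floor. AOM values were kept as read. The AOM mean rests largely on AOM replicate 2, since the log2 ratio of Dkk2 was 0.01, 2.97 and 0.57 on AOM arrays 1 to 3. Of 21 BMP genes Grem1 passed; the target Id4 was at 1.1 ± 0.32 (adjusted p = 0.115) and the antagonist Fst, well above background on 1 saline array, at 0.74 ± 0.25.

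Of 22 Wnt targets and feedback inhibitors 18 were above 0, with a median of 0.42, and 2 passed (8 at unadjusted p under 0.05, limma). The groups lay apart and higher in 9, against 9.45% of all genes, and lower in 1, against 8.34%. Nkd1, an intracellular feedback inhibitor, read -1.35, -0.99 and -1.23 after saline and 0.61, 1.51 and 0.22 after AOM, and rose by 1.97 ± 0.29 (adjusted p = 0.00796). The hyaluronan receptor gene Cd44 rose by 1.49 ± 0.31 (adjusted p = 0.041); its 3 probes gave 0.66, 1.49 and 1.80. The transcription factor gene Sp5 was at 1.21 ± 0.32 (adjusted p = 0.0912), Axin2 at 0.98 ± 0.28 and the stem cell receptor gene Lgr5 at 0.83 ± 0.36, and none of the 3 passed. Of the 4 members below 0, 3 are named after their values were seen: Ascl2 was at -0.17 ± 0.23, Sox9 at -0.15 ± 0.22 and Myc at -0.12 ± 0.27. The stem and transit-amplifying list had a median of 0.22 with none of 15 members called (3 at unadjusted p under 0.05).

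Genes of squamous barriers and of regenerating epithelium included several of the largest rises. Sprr1a, a cornified envelope protein, read -0.68, -0.62 and -1.02 after saline and 1.48, 1.84 and 1.5 after AOM, and rose by 2.38 ± 0.30 (5.21-fold; adjusted p = 0.00403). Sprr2h read 0.38, 0.01 and 1.25 after saline and 1.89, 3.88 and 2.46 after AOM (2.20 ± 0.45; adjusted p = 0.0385). No other gene of the small proline-rich and squamous list passed. Its median over 19 members was -0.06, with 8 above 0, and it turned to 0.29 with median centring and to 0.15 with the red channel alone; Sprr2e was at 0.92 ± 0.39, and Sprr1b, Sprr3 and the keratin gene Krt5 were at -0.06 ± 0.20, -0.20 ± 0.22 and -0.22 ± 0.31. The tight junction gene Cldn4 read 1.37, 1.13 and 1.02 after saline and 2.51, 3.03 and 2.33 after AOM, and rose by 1.45 ± 0.26 (adjusted p = 0.0205), while the median of 18 claudin and tight junction genes was -0.07, and 0.28 with median centring.

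Upstream stretches of the 3 called genes of these families are shown with TGANTCA in capitals, where N is any base; this pattern covers the AP-1 sites TGAGTCA and TGACTCA.
Sprr1a, chr3:92485882-92486131, minus strand: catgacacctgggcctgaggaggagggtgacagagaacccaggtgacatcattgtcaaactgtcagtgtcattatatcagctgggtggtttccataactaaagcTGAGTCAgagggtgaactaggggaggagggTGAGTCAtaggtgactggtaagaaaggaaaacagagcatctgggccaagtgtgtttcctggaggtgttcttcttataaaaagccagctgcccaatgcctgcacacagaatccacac
Sprr2h, chr3:92385435-92385684, plus strand: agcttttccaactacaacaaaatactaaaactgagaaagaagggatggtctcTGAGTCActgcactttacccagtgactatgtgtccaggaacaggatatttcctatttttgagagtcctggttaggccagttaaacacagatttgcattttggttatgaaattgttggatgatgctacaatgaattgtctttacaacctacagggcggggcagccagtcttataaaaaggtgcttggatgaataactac
Cldn4, chr5:134946935-134947184, minus strand: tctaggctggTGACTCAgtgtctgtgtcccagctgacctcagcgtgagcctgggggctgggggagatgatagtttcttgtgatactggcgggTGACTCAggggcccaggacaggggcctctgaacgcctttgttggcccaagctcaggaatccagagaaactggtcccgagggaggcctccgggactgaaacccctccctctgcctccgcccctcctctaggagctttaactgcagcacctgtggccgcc
Sprr1a and Cldn4 hold the pattern 2 times and Sprr2h 1 time. It was present in 6.75% of the 32851 windows, and in 8 of the 11 measured Sprr genes with a window, Sprr1b among them, which did not pass.

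The fetal-like and regeneration list had 25 of 27 members above 0 and a median of 0.50 (0.58, 0.64 and 0.46 on slides 1 to 3). The groups lay apart and higher in 15 members, against 9.45% of all genes, and 2 of these passed. Ly6d, a surface protein of epithelial progenitors, read 0.12, 1.44 and 1.25 after saline and 3.12, 3.25 and 2.62 after AOM (2.06 ± 0.35; adjusted p = 0.0196). The calcium-dependent membrane-binding protein gene Anxa5 rose by 1.06 ± 0.15 (adjusted p = 0.00688). Krt23 was at 1.87 ± 0.41 with an adjusted p of 0.0511. Ly6a, a marker of regenerating crypts named after its value was seen, was at 1.07 ± 0.28, and Clu at 0.63 ± 0.39, without passing.

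The next list joins ERK feedback genes, which limit growth factor signals, with immediate early genes. Of its 36 members 3 were called, against 0.583% of all genes, and the median was 0.19. Phlda1 read 0.29, 0.06 and 0.15 after saline and 1.25, 1.95 and 1.51 after AOM, a rise of 1.40 ± 0.17 (adjusted p = 0.00277). Dusp6, a phosphatase that inactivates ERK, rose by 0.93 ± 0.16 (adjusted p = 0.0161), and the immediate early gene Egr1 rose by 1.08 ± 0.23 (adjusted p = 0.0439, and 0.0736 with slide as a block). Of 15 EGF family ligands and receptors, 1 passed, a receptor. Erbb3 read 1.79, 1.5 and 1.15 after saline and 0.56, 0.54 and 0.78 after AOM, and fell by 0.86 ± 0.18 (adjusted p = 0.0402, and 0.0584 with slide as a block), with 4 probes at -0.86 to -0.54. Egfr was at 0.94 ± 0.20 with an adjusted p of 0.0511, and the ligand Areg at 1.69 ± 0.52 (adjusted p = 0.14).

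Among the DNA damage lists, 2 of 26 p53 targets passed, against 0.583% of all genes. The groups lay apart and higher in 7, against 9.45% of all genes, with 19 above 0 and a median of 0.16. Phlda3, which restrains AKT, read -1.84, -1.19 and -1.53 after saline and 0.11, 0.59 and -0.06 after AOM, and rose by 1.73 ± 0.25 (3.32-fold; adjusted p = 0.00688). The cell cycle gene Gtse1, well above background on 2 saline arrays, rose by 1.12 ± 0.16 (adjusted p = 0.00795). Plk2 was at 0.71 ± 0.19 (adjusted p = 0.0912). Of other members, named after their values were seen, Cdkn1a was at 0.20 ± 0.28, Mdm2 at 0.05 ± 0.15 and Bax at 0.18 ± 0.14, without passing. Of 19 measured genes of alkylated DNA repair none passed (3 at unadjusted p under 0.05), with a median of 0.15; Apex1, the abasic site nuclease, was at 0.63 ± 0.19 and Ung at 0.60 ± 0.25.

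Genes of xenobiotic metabolism leaned lower. Of 51 members 36 were below 0 and none passed (16 at unadjusted p under 0.05), with a median of -0.33 and with -0.30, -0.20 and -0.46 on slides 1 to 3; the groups lay apart and lower in 18, against 8.34% of all genes. Cyp2c29 was at -1.16 ± 0.29 (adjusted p = 0.0759), Cyp2w1 at -0.87 ± 0.21 and Cyp2e1, a P450 enzyme that activates AOM, at -0.56 ± 0.15 (adjusted p = 0.0865). Cyp2e1 read -1.98, -1.61 and -2.02 after saline and -2.24, -2.59 and -2.46 after AOM. In the antioxidant list 2 of 28 members passed, with a median of 0.20. Gpx2, the epithelial glutathione peroxidase, read 3.61, 3.78 and 4.24 after saline and 5.23, 5.67 and 4.73 after AOM (1.34 ± 0.29; adjusted p = 0.0473), and the aldo-keto reductase gene Akr1b8 rose by 0.92 ± 0.16 (adjusted p = 0.0196). Of the metallothioneins, Mt4 was at 3.20 ± 0.70 and Mt3 at 1.82 ± 0.44, with adjusted p of 0.0511 and 0.069. Mt4 read -0.39, -0.14 and -0.34 after saline and 2.95, 3.71 and 2.04 after AOM, while the common forms Mt1 and Mt2 were at -0.30 ± 0.28 and -0.05 ± 0.33.

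Proliferation genes had a median slightly above 0 on every slide (0.50, 0.51 and 0.45 on slides 1 to 3), and of 0.49 over 3 arrays a group. By that group difference 35 of 36 were above 0. On all 3 slides, 24 were above 0 and 1 was below. The groups lay apart and higher in 19, against 9.45% of all genes, and 3 passed as higher, against 0.457%. Cdc20, an activator of the anaphase-promoting complex, read -1.39, -1.33 and -1.22 after saline and -0.38, -0.67 and -0.36 after AOM (0.84 ± 0.15; adjusted p = 0.0202). The mitotic kinase gene Plk1 rose by 0.65 ± 0.14 (adjusted p = 0.041) and the kinetochore motor gene Cenpe by 0.62 ± 0.13 (adjusted p = 0.037), with 0.055 and 0.0662 with slide as a block. Other probes of Cenpe gave 0.25 and 0.18. Outside the list, and named after its value was seen, the transcription factor gene E2f2 rose by 1.30 ± 0.17 (adjusted p = 0.00558).

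Several genes of stroma and matrix rose. In the IGF axis, Igfbp5, a secreted binding protein of insulin-like growth factors, read -3.34, -3.29 and -3.02 after saline and -0.94, -0.68 and -1.29 after AOM. It rose by 2.25 ± 0.24 (4.75-fold; adjusted p = 0.00244), with its second probe at 0.53. Igfbp7 rose by 1.17 ± 0.21 (adjusted p = 0.0225), and Igfbp4 was at 1.27 ± 0.30 (adjusted p = 0.066). The transglutaminase gene Tgm2, which cross-links matrix proteins, rose by 1.71 ± 0.30 (adjusted p = 0.0196), the endothelial GTPase gene Rhoj by 1.46 ± 0.30 (adjusted p = 0.0386) and the membrane protease gene Mmp14 by 0.85 ± 0.13 (adjusted p = 0.0104). Other probes of Tgm2 gave 1.09 and 1.03, and that of Mmp14 gave 0.42. Of 22 collagen chains, Col4a2 of basement membranes passed (1.23 ± 0.23, limma, adjusted p = 0.0292), and its partner Col4a1 was at 1.05 ± 0.23 (adjusted p = 0.0511). The median of the 22 was 0.52 (0.49, 0.45 and 0.53 on slides 1 to 3), and 4 were below 0. With slide as a block, 1 chain was called higher and 1 lower. The 6 type IV chains, grouped after their values were seen, ranged from -1.5 to 1.23, with 3 above 0 and a median of 0.11.

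All 24 fibroblast and matrix genes were above 0, with a median of 0.94. The groups lay apart and higher in 18, against 9.45% of all genes, and none passed (17 at unadjusted p under 0.05). Dcn and Sparc were at 1.43 ± 0.31 and 1.47 ± 0.33, both with an adjusted p of 0.0511. All 18 smooth muscle genes were above 0 with a median of 1.83, and none passed (17 at unadjusted p under 0.05). Their median was 2.03 on slide 1, 3.13 on slide 2 and 0.13 on slide 3. Their median level was -0.05, -1.02 and 0.50 after saline and 2.03, 2.22 and 0.74 after AOM, so that saline replicate 2 was lowest and saline replicate 3 lay close to AOM replicate 3. Vip, a neuropeptide of enteric neurons, was at 2.01 ± 0.57 (adjusted p = 0.107), beside a median of 0.30 for 22 neuron and glia genes. Skeletal muscle genes had a median of -0.16 (0.04 with median centring), and mesothelium, with 4 members measured, one of 0.43. The part of the muscle layer in the matrix and stromal changes was not tested.

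**Figure D2:**
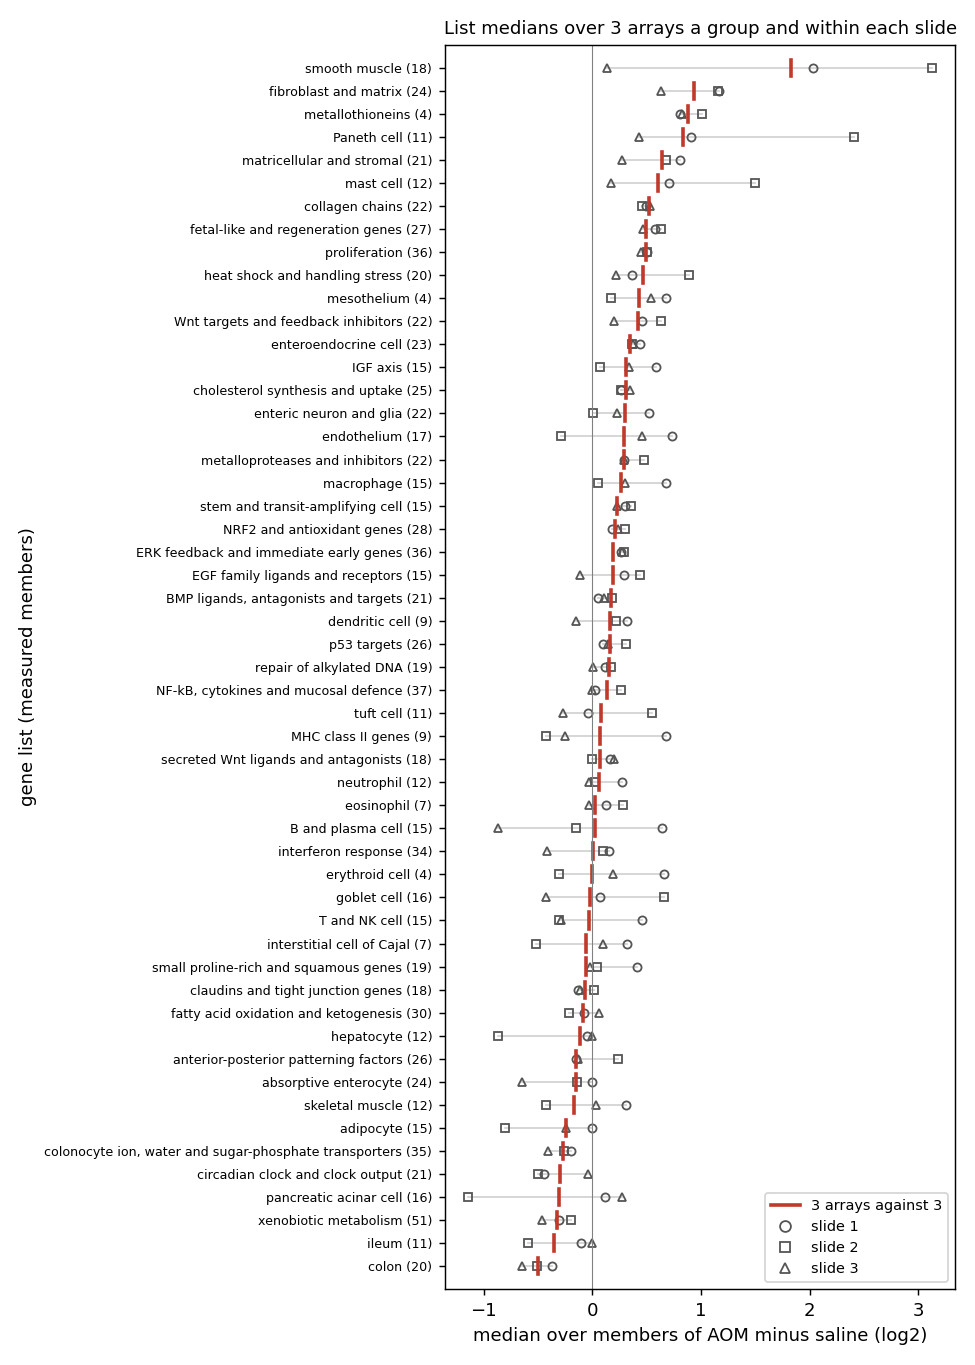
Median over the measured members of each of the 53 gene lists of the log2 difference AOM minus saline (x axis), for 3 arrays against 3 (red bars) and within each slide (symbols); the number of members is beside each name. Smooth muscle has the highest median, 1.83, and the widest spread over slides, 0.13 to 3.13, while proliferation lies at 0.45 to 0.51.

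The largest fall was that of a transporter. Slc37a2, a sugar phosphate exchanger, read 4.29, 4.25 and 3.98 after saline and 2.15, 2.52 and 1.39 after AOM. It fell by 2.15 ± 0.29 (4.43-fold; adjusted p = 0.00579), and its second probe gave -2.01. The sodium bicarbonate cotransporter gene Slc4a4 fell by 1.08 ± 0.20 (adjusted p = 0.027) and the zinc transporter gene Slc39a5 by 0.89 ± 0.16 (adjusted p = 0.0259). Other probes of Slc4a4 gave -0.57 and -0.55. Of 35 colonocyte transporters 26 were below 0, with a median of -0.27, and Slc37a2 passed; the carbonic anhydrase gene Car2 was at -1.39 ± 0.31 (adjusted p = 0.0523) and the phosphate transporter gene Slc20a1 at -0.82 ± 0.20. The colon list, which shares Slc37a2, had a median of -0.50 over 20 members (-0.37, -0.51 and -0.64 on slides 1 to 3), and its member Mettl7a1 fell by 1.02 ± 0.16 (adjusted p = 0.0143).

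Several metabolic and signalling genes fell besides. Kyat1, a kynurenine aminotransferase, read 1.82, 2.18 and 1.74 after saline and 0.58, 0.66 and 0.39 after AOM (a fall of 1.37 ± 0.27; adjusted p = 0.0336). Smim24 fell by 1.28 ± 0.23, Speer4cos by 1.22 ± 0.19 and Pycrl, of proline synthesis, by 0.80 ± 0.15. Use1, of vesicle fusion with the endoplasmic reticulum, fell by 0.83 ± 0.14, the nucleoporin gene Nup98 by 0.79 ± 0.15 and the adenylate cyclase gene Adcy6 by 0.75 ± 0.16. The remaining largest falls were those of Cryzl2 and the ubiquitin ligase gene Rnf13, by 0.69 ± 0.15 and 0.69 ± 0.14, neither called with slide as a block (adjusted p = 0.0691 for both). Other probes gave -0.33 and -0.27 for Nup98 and -0.19 and -0.58 for Rnf13. For absorption as a whole, 24 enterocyte genes had a median of -0.15 with none called (3 at unadjusted p under 0.05); Vil1 was at 0.04 ± 0.18.

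Clock genes also leaned lower, with 17 of 21 below 0 and a median of -0.30 (-0.44, -0.50 and -0.04 on slides 1 to 3). Dbp, a direct output of the clock, read 0.59, 0.34 and 0.39 after saline and -0.49, -0.16 and -0.77 after AOM, and fell by 0.91 ± 0.19 (adjusted p = 0.0372). The related factor Tef was at -0.84 ± 0.19 (adjusted p = 0.0518) and Per1 at -0.76 ± 0.19. Arntl and Nfil3, among the 4 members above 0 and named after their values were seen, were at 0.45 ± 0.18 and 0.53 ± 0.16. The hour of sampling is not given in the labels, and its part was not tested.

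Inflammatory and immune lists held few calls. None of 37 NF-kB, cytokine and mucosal defence genes passed (5 at unadjusted p under 0.05), although Duoxa2, a maturation factor of an epithelial oxidase, was at 2.50 ± 0.55 (adjusted p = 0.0511), Nos2 at 1.35 ± 0.35 and the neutrophil chemokine gene Cxcl5, well above background on 1 saline array, at 2.09 ± 0.56. Duoxa2 read 1.59, 0.68 and 2.66 after saline and 3.56, 5.0 and 3.86 after AOM. Interferon response and MHC class II genes had medians of 0.00 and 0.07, with none called among 34 (0 at unadjusted p under 0.05) and 9 (1 at unadjusted p under 0.05). Both medians turned below 0 with the scanner's own log ratio, to -0.15 and -0.10. Klrd1, a natural killer cell receptor well above background on 2 saline arrays, rose by 1.24 ± 0.22 (adjusted p = 0.0224) in a T and NK cell list with a median of -0.03. Mast cell genes had a median of 0.60, from 0.17 on slide 3 to 1.5 on slide 2, with Mcpt4 at 1.47 ± 0.46 (adjusted p = 0.144). Heat shock genes had a median of 0.47, with none called (9 at unadjusted p under 0.05); their median level was 0.69 on AOM replicate 2 and -0.64 to -0.27 on the other 5 arrays, and that array was the highest AOM array for 14 of the 15 largest rises, all but Wfdc18. The part of handling in these genes was not tested. Cholesterol synthesis genes were above 0 in 24 of 25, with a median of 0.31, and none passed (7 at unadjusted p under 0.05); Idi1 was at 0.78 ± 0.23.

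The same contrast on the SJW diet, on other arrays of the same slides, called 296 genes (1.14%). Of the 152 genes called on the control diet, 50 were called there in the same direction and 8 had the opposite sign. A test of the difference of the AOM change between the diets called no gene (limma; 2435 at unadjusted p under 0.05, and 49 of the 152), and its smallest adjusted p among the 152 was 0.476. Slc37a2 fell on the SJW diet by 2.29 ± 0.29 (adjusted p = 0.018), and Phlda3, Igfbp5 and Defa23 rose there by 1.63 ± 0.25, 1.58 ± 0.24 and 3.33 ± 0.57. Sprr1a was at 0.22 ± 0.30 on the SJW diet, a difference between the diets of 2.16 ± 0.43 with an adjusted p of 0.476. Wif1 was at 0.63 ± 0.58, a difference of 2.19 ± 0.82. Of the 15 largest rises, none was larger on the SJW diet than on the control diet; these genes were chosen by their size on the control diet, which alone favours this order.

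**Figure D3:**
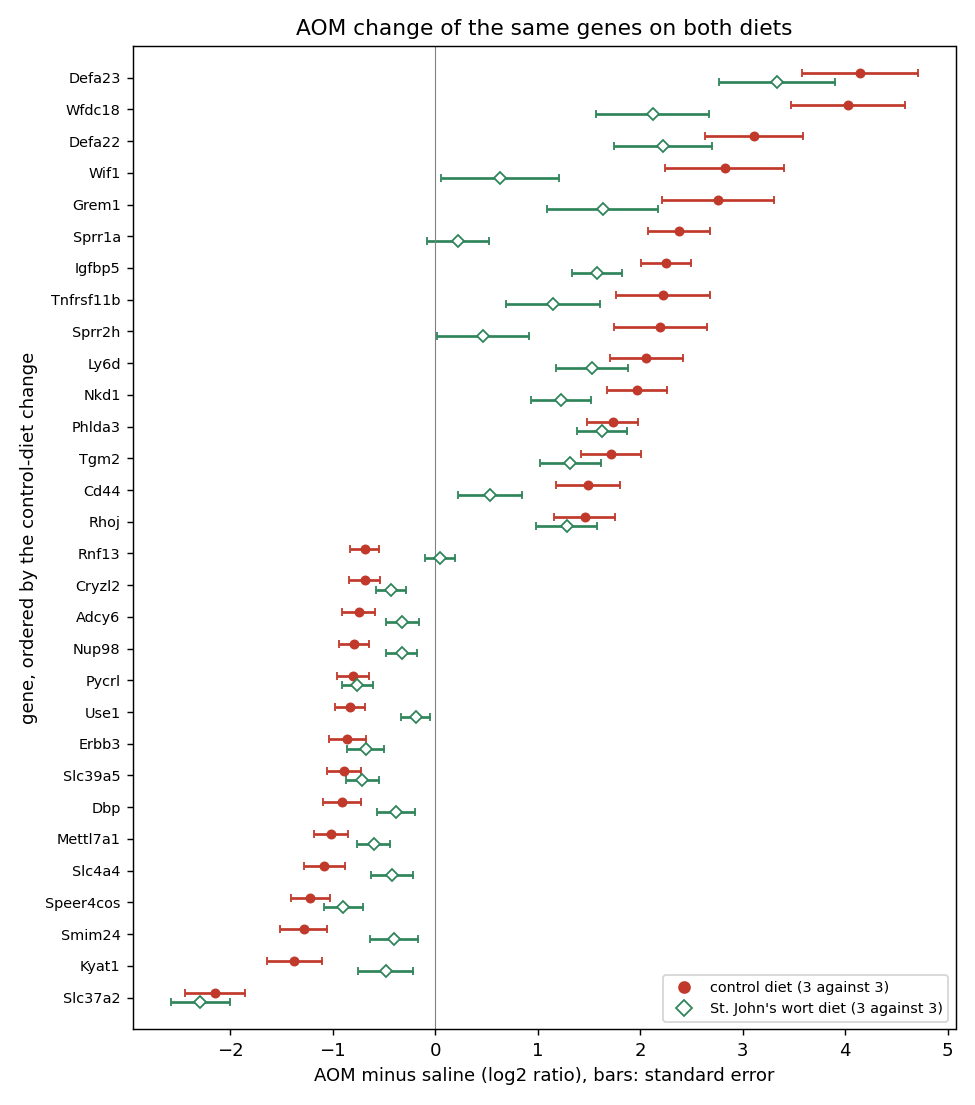
Log2 difference AOM minus saline with its standard error (x axis) for the 15 largest called changes up and the 15 down on the control diet (y axis), on the control diet (circles) and on the SJW diet (diamonds), 3 arrays against 3 in each. Slc37a2, Phlda3 and Pycrl lie together on both diets, and Sprr1a stands at 2.38 on the control diet and 0.22 on the SJW diet.

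**Figure D4:**
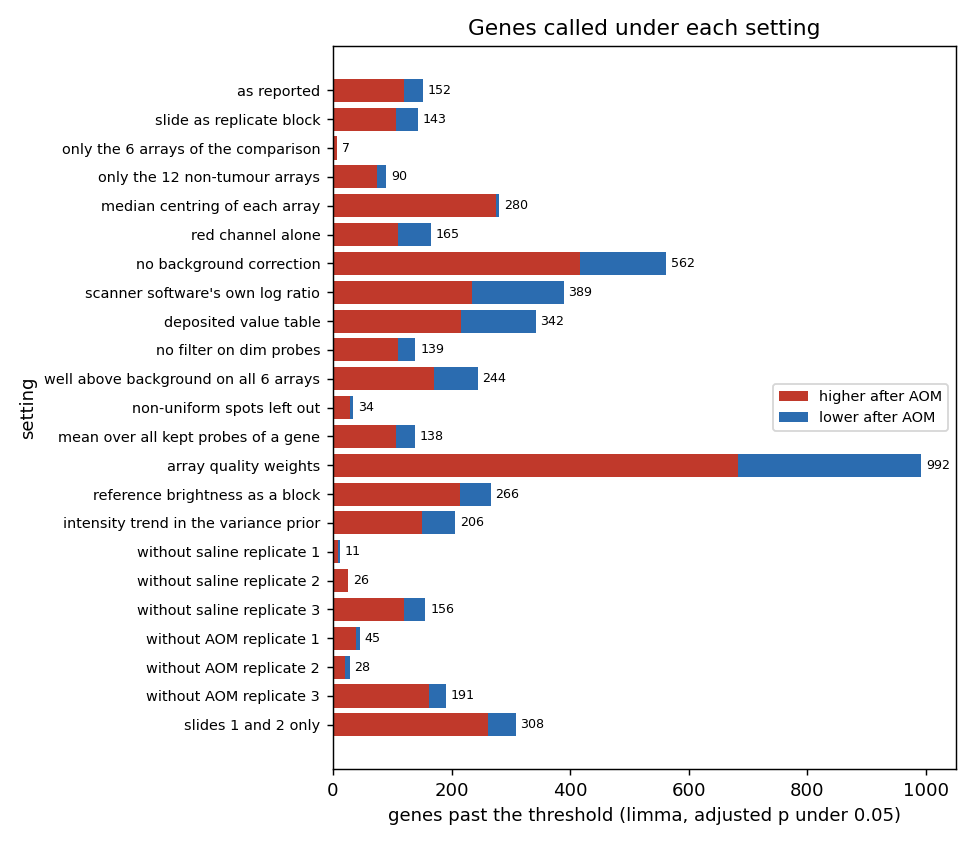
Number of genes past the threshold (x axis), higher in red and lower in blue, as reported and under each other setting (y axis). The count is 152 as reported, 7 with the 6 arrays alone in the fit and 992 with array quality weights.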

How the data were processed

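RNA of 18 mouse intestine samples was measured on 2-colour Agilent arrays. Groups came from the labels, which name small intestine as the tissue and liver in the extraction protocol. Per the file headers, the deposited intensity values are median pixel intensities of spot and local background, read with Agilent Feature Extraction 10.10.1.1 (protocol GE2_1010_Sep10), and the deposited log10 ratio sets the software's corrected red signal over its green one. The deposited table of log2 values matched log2 of the processed red over green signals on each array; both served as alternatives.

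Median intensities were corrected with normexp (offset 50) and log2 ratios normalized by loess within arrays, without control or outlier spots. Mean spot intensities were not used here. A probe was kept where red exceeded background clearly on each of the 3 arrays of at least 1 group (34073 of 41174), and the brightest probe stood for a gene. Names came through RefSeq accessions (GRCm38.p6); 27050 probes had 1 symbol and 14124 none. The number of arrays limits the precision. All 18 arrays entered 1 limma fit (limma 3.58.1, R 4.3.3, data.table version 1.17.8; 12 residual degrees of freedom), with Benjamini-Hochberg adjustment over 26067 genes at 0.05. Errors are standard errors of that fit.

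Same-numbered arrays share a slide, which was tried as a block. Members, lists and tests were chosen with earlier results of these data known. Named genes are the 15 largest called changes each way with groups apart and with gene symbols, and up to 3 members of each list with the smallest p, where unadjusted p was under 0.05; others are marked. The gene lists overlap. Alternatives covered the slide block, arrays in the fit, normalization, background, filters, probes, weights and each array left out.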

Additional observations from a re-analysis of the deposited data

Results flagged for a closer look

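Of the 45 called genes named by rule, 2 moved one way on every slide on the control diet and the opposite way on every slide on the SJW diet. The other called genes were not searched for this. The change of Cldn4 after AOM was 1.45 ± 0.26 on the control diet and -0.25 ± 0.26 on the SJW diet, a difference of 1.70 ± 0.36. The change of Akr1b8 was 0.92 ± 0.16 on the control diet and -0.44 ± 0.16 on the SJW diet, a difference of 1.36 ± 0.23. Neither difference passed over all genes (limma, adjusted p = 0.476 for both), and neither gene passed on the SJW diet.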

How the results depend on the processing

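Of 22 other settings tried, including 1 chosen after seeing the data, the count of 152 genes stayed within 1.5 times with slide as a replicate block (143, of which 106 were among the 152), the red channel alone (165), no filter on dim probes (139), the mean over probes (138) and an intensity trend (206). It was 7 with the 6 arrays of the comparison alone, 90 with the 12 non-tumour arrays, 280 with median centring (275 higher and 5 lower), 562 with no background correction, 389 with the scanner's own log ratio (234 and 155), 342 with the deposited value table (216 and 126), 244 with probes above background on all 6 arrays, 34 without non-uniform spots, 992 with array quality weights and 266 with reference brightness as a block. The red channel alone gave 110 higher and 55 lower. With slides 1 and 2 only, where reference brightness matched, it was 308, a setting chosen after seeing the data. Same-numbered arrays share a slide, and their deviations from the group means correlated at 0.055, -0.348 and -0.179. Those of arrays on different slides correlated at -0.361 to 0.469. With 3 arrays a group these values constrain each other and cannot tell whether arrays of a slide are paired. Leaving out each array gave 11 to 191. The median change of all genes was -0.12 with the scanner's own log ratio and with the deposited table, and -0.01 as reported; the cause of these moves was not tested. The count for the difference between diets was 0 in each setting run for it, and 0 to 2 with arrays left out (2 without control saline replicate 3). Of the 152 genes 148 kept their sign wherever they were measured. Of 45 called genes named in the report by rule, 38 stayed called with the block, which reversed none. List medians near 0 were less stable: those of 20 of the 53 lists turned sign in at least 1 setting, 9 with median centring, 10 with the red channel alone and 8 with the scanner's ratio. G6pc (0.077 with median centring), Gata4 (0.15 with the deposited table) and Hmgcs1 (-0.10 without non-uniform spots), none of them called, turned sign.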

Other observations

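Families below were chosen after the values were seen. Of 25 genes with integrin symbols (Itgb3bp, not an integrin, among them), whose proteins anchor cells to matrix, 17 were above 0 and 3 passed, all higher: Itgb3 (1.15 ± 0.17), Itgav (0.90 ± 0.15) and Itgb1 (0.87 ± 0.17). The other probe of Itgav gave 0.067 and that of Itgb1 0.72. Of 10 laminin chains, Lama5, the epithelial basement membrane chain, rose by 1.42 ± 0.17 (limma, adjusted p = 0.00277), and read -0.95, -0.52 and -0.56 after saline and 0.80, 1.1 and 0.33 after AOM. The groups lay apart and higher in 5 of the 10, against 9.45% of all genes.

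Genes of protein entry and folding in the endoplasmic reticulum mostly lay above 0. Of 19 genes of the translocon and of oligosaccharyltransferase, matched by symbol (which also took Ostf1, Ostm1 and Ostn), 15 were above 0. The groups lay apart and higher in 11, against 9.45% of all genes, and Rpn1 (0.71 ± 0.14) and Ssr3 (0.67 ± 0.13) passed. Other probes of Rpn1 gave 0.59 and -0.01, and those of Ssr3 gave 0.33 and 0.016. Of 18 chaperones and disulfide isomerases 17 were above 0, and Manf (0.90 ± 0.17) and Hsp90b1 (0.75 ± 0.15, with its other probe at 0.34) passed. Of 50 proteasome genes 44 were above 0 with a median of 0.21. The groups lay apart and higher in 25, against 9.45% of all genes, and Psmc4 passed (0.68 ± 0.12). Of 14 tubulins 11 were above 0, with a median of 0.49, and 3 passed. Among amino acid response genes, Asns rose by 0.76 ± 0.16, Atf5 by 0.88 ± 0.15 and Eif4ebp1 by 0.78 ± 0.14 with its other probe at 0.26. With slide as a block, Itgb1, Hsp90b1 and Asns did not pass (adjusted p = 0.0584, 0.0574 and 0.0683).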
